A study of Mus musculus with 59 samples.

Results

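The genes described here are Fos, Fosb, Jun and Junb, 4 genes of the AP-1 transcription factor. They were chosen by name from the deposited table, with no measured value in the rule. Earlier results of these data were known when the members were chosen. All 4 were among the 4484 genes in the table, and all 4 were among the 4273 genes tested. They were followed in 59 RNA sequencing libraries from homogenised medial prefrontal cortex. The mice were adults of the inbred strain C57BL/6J, wild type, killed every 4 h over 24 h. The groups were males and females at zeitgeber time (ZT) 2, 6, 10, 14, 18 and 22, with 5 libraries in each of the 12 groups except ZT10 females, with 4. No allele, drug or other treatment is given in the labels. The light schedule is not given either. ZT0 is lights on by convention, so ZT14, ZT18 and ZT22 are called the dark times and ZT2, ZT6 and ZT10 the light times.

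AP-1 is a dimer of a Fos family protein with a Jun family protein, or of Jun family proteins with each other, held together by leucine zippers. Fos proteins cannot form stable dimers among themselves, so they act through a Jun partner. In neurons these genes are immediate early genes. Their transcription is switched on within minutes of calcium entry and kinase signalling, without new protein synthesis, through cAMP response elements (CRE) and serum response elements near the start site, and the transcripts are short-lived. In the cortex Fos is widely used as a marker of recently active cells. The alternatively spliced product of Fosb, ΔFosB, is a stable protein that builds up on repeated stimulation.

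The start-site regions of the 4 genes are shown because elements through which activity reaches such genes lie near the start site and because the members moved at different times of day. Elements farther upstream lie outside these windows. Each line gives 300 bases from RefSeq (GRCm38.p6), read 5′ to 3′ on the gene's strand, with position 0 as the RefSeq start site at base 251. Capitals mark the motif matches named after the lines. The regions are chr12:85473640-85473939 on the plus strand for Fos, chr7:19309996-19310295 on the minus strand for Fosb, chr4:95052173-95052472 on the minus strand for Jun and chr8:84978699-84978998 on the minus strand for Junb.
Fos: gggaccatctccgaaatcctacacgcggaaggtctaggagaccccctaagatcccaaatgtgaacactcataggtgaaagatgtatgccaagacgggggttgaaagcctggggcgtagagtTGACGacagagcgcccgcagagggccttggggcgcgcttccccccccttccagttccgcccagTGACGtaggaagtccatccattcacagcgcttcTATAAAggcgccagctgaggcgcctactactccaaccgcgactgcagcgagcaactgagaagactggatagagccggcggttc
Fosb: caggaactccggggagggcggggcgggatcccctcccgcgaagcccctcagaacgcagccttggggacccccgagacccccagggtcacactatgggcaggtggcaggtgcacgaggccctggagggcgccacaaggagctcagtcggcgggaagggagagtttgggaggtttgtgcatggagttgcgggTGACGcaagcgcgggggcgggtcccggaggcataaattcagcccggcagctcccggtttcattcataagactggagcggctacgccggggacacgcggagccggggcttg
Jun: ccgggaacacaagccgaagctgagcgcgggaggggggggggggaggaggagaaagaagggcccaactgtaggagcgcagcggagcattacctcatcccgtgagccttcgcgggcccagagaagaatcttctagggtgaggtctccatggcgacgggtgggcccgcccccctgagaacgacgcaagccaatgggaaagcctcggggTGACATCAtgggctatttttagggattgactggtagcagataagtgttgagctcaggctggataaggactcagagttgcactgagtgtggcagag
Junb: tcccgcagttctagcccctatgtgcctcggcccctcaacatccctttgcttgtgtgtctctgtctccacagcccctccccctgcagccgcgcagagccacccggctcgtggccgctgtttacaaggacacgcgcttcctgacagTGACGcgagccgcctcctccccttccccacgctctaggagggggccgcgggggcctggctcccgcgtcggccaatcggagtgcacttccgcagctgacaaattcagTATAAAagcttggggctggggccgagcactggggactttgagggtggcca

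Letters were searched on both strands. The CRE TGACGTCA, the AP-1 site TGANTCA, the serum response element in its CArG box form and the E-box CACGTG, where clock proteins can bind, had no match in these windows of the 4 genes. The shortened CRE CGTCA, written TGACG on the strand shown, was found in 3 of the 4. Fos held it from position -129 to -125 and again from -66 to -62, Fosb from -60 to -56 and Junb from -106 to -102. The full CRE contains the shortened one, and a CArG box can contain the letters of the TATA box. In these windows no TATA box match overlapped another match. Jun held TGACATCA, a variant of the AP-1 site, from -45 to -38. That variant was added to the search after the Jun sequence had been seen. The TATA box TATAAA was found from -33 to -28 in Fos and from 0 to 5 in Junb, which is -30 to -25 from the Junb start in the GENCODE M21 annotation. Among 32851 promoters of the same length, 20.81% held the shortened CRE, 3.62% the AP-1 variant, 13.62% the TATA box, 1.79% the full CRE, 7.81% the AP-1 site, 1.63% the CArG box and 7.15% the E-box. Among the 4170 promoters of tested genes, 31.99% held the shortened CRE, so a match to it is common.

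The deposited values are on the log2 scale of a read count that was scaled per library, plus 1. The reads recovered from them came to between 6317420 and 13325019 per library, of which 6 noncoding genes (Gm42418, Gm23935, Rpph1, Malat1, Gm26917 and Gm24270) took between 61.4% and 91.19%. The other genes shared between 1009789 and 4253935 reads. The first principal component of the deviations from the group means took 26.5% of their variance. On it, the 11 libraries titled with serial numbers from 49 to 60 scored higher on average. Their scores averaged 20.29 ± 4.95 (SD, n = 11), against run means from -7.32 to 1.84 in the other 4 runs of 12 numbers. Within those 4 runs the scores spread more widely, with SDs from 10.03 to 15.7 (n = 12 each). The table held 22 of 72 listed cell type markers, and 0 of these followed a 24 h rhythm (limma, adjusted p under 0.05), with 4 at an unadjusted p under 0.05. Named after their values were seen, these were Crh, with an amplitude of 0.44 ± 0.11 (adjusted p = 0.0639), Calb2 with 0.16 ± 0.06 (adjusted p = 0.331) and Vip with 0.13 ± 0.05 (adjusted p = 0.324), of inhibitory neurons, and Fgfr3, of astrocytes, with 0.24 ± 0.07 (adjusted p = 0.0961), all by limma. The fitted peak was ZT8.58 for Crh and ZT19.91 for Fgfr3. The part of these markers in the results for the AP-1 genes was not tested. Slc17a7, the vesicular glutamate transporter of cortical excitatory neurons, averaged a log2 value of 14.86, and Gad1, of inhibitory neurons, 11.07. The 8 GABAergic markers summed to scaled counts from 4783 to 7993 at the dark times and 5012 to 9014 at the light times, and the 4 astrocyte markers to 6226 to 20476 at the dark times and 6968 to 19813 at the light times. The 2 oligodendrocyte markers summed to 510 to 2004 at the dark times and 489 to 2218 at the light times, and the 2 microglial markers to 530 to 1434 at the dark times and 859 to 1619 at the light times. The vascular marker Lum had a median of 55 at the dark times and 59 at the light times. The single striatal marker in the table, Tac1, lay between 43 and 239 at the dark times and between 51 and 280 at the light times. No listed marker of blood was in the table. The titles also carry an animal number, from 1 to 4, which repeats within groups, so that a group of 4 or 5 libraries has 2 to 4 different numbers. Whether an animal number within a group names a single mouse is not stated. If it does, libraries share mice and the p-values given here are too small. The n given is of libraries, and p-values measure only the spread among libraries, which may be technical.

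The 4 genes differed widely in level. Junb and Jun were the most abundant per length, at 430.6 ± 137.2 and 410.1 ± 89 scaled counts per kilobase of annotated exon (SD, n = 59), a difference smaller than their spread. Fos followed with 124.1 ± 56.8 and Fosb with 31 ± 11.7 scaled counts per kilobase. The recovered reads behind these values were few for the Fos family, with a lowest, median and highest library of 16, 89 and 435 reads for Fos and 19, 59 and 200 reads for Fosb. Jun had a median of 418 and a highest library of 1134 reads, and Junb 289 and 1077 reads. The spread within groups on the log2 scale was 0.558 for Fos, 0.531 for Fosb, 0.232 for Jun and 0.298 for Junb, against 0.164, 0.196, 0.072 and 0.084 for the counting of reads alone. In homogenate, fewer cells with a transcript and less of it per cell cannot be told apart.

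With libraries on the deposited scale, Fos, Jun and Junb were higher at the dark times than at the light times. Each followed a 24 h rhythm, and they did so with different peaks. When libraries were scaled by their totals, Junb alone kept its calls of dark over light and of a 24 h rhythm. On the deposited scale Junb was highest at ZT14, Fos at ZT18 and Jun at ZT22, whereas with libraries scaled by their totals all of these were highest at ZT18. Fosb stood high at ZT18 alone, and it passed none of the tests run across all genes on the deposited values without further covariates. The question behind these comparisons is how expression in this cortical region follows the time of day.

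Fos, which encodes the inducible partner of Jun proteins, is a gene of 4 exons (ENSMUSG00000021250, GRCm38, chromosome 12, 85473890 to 85477273). Its log2 value, as lowest, median and highest library, was 7.31, 7.90 and 8.33 at ZT2, 5.89, 7.72 and 7.97 at ZT6, 6.43, 7.73 and 8.33 at ZT10, 7.92, 8.27 and 9.37 at ZT14, 7.47, 8.87 and 9.21 at ZT18, and 7.23, 8.31 and 9.11 at ZT22. Every ZT14 library was above the ZT2 median, but only 4 of 10 lay above every ZT10 library. Both sexes at ZT14, ZT18 males and both sexes at ZT22 held libraries within the light range, so dark and light times overlapped. At ZT18, 8 of 10 libraries lay above every ZT6 library, and at ZT14, 9 of 10 did. At ZT18 the males had 8.57, 7.79, 9.21, 9.03 and 7.47, and the females 8.94, 9.13, 8.49, 9.21 and 8.80. At ZT6 the males had 7.31, 7.88, 7.56, 7.31 and 7.95, and the females 7.96, 7.89, 6.37, 7.97 and 5.89. The pair of low ZT6 females rested on 18 and 16 reads. Without the lower of them the fitted amplitude of Fos was 0.54, against 0.60 with all libraries.

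Fosb encodes a relative of Fos with 5 exons in its longest coding transcript (ENSMUSG00000003545, chromosome 7, 19302696 to 19310051). Its log2 values were 6.71, 7.38 and 8.32 at ZT2, 6.03, 7.54 and 8.70 at ZT6, 6.61, 7.38 and 8.15 at ZT10, 6.27, 7.44 and 8.03 at ZT14, 7.19, 8.14 and 8.41 at ZT18, and 6.97, 7.52 and 8.05 at ZT22. The medians of the other 5 times lay between 7.38 and 7.54, and ZT18 alone stood above them. At ZT18 males had 8.36, 7.19, 8.41, 8.04 and 8.31, and females had 8.29, 7.88, 8.23, 7.95 and 8.04. At ZT14 males had 6.51, 6.29, 7.56, 7.32 and 7.53, and females had 7.37, 8.03, 6.27, 7.52 and 7.69. The ZT14 values of 6.51, 6.29 and 6.27 rested on 19, 19 and 23 reads. Of the ZT18 libraries, 7 of 10 lay above every ZT14 library, and the other 3, 1 male and 2 females, fell within the ZT14 range.

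Jun, a gene of a single exon (ENSMUSG00000052684, chromosome 4, 95049034 to 95052222), encodes a partner of Fos proteins that also pairs with itself. Its log2 values were 9.77, 10.24 and 10.59 at ZT2, 9.56, 10.13 and 10.55 at ZT6, 9.60, 10.12 and 10.39 at ZT10, 9.82, 10.23 and 10.75 at ZT14, 10.25, 10.50 and 10.90 at ZT18, and 10.20, 10.67 and 10.96 at ZT22. The 2 late dark times held the highest medians, and 8 of 10 ZT22 libraries lay above every ZT10 library. At ZT22 the males had 10.20, 10.63, 10.86, 10.31 and 10.45, and the females 10.64, 10.93, 10.75, 10.70 and 10.96. At ZT10 the males had 10.32, 10.07, 9.95, 10.13 and 10.39, and the 4 females 10.12, 10.21, 9.60 and 9.99. The 2 ZT22 libraries inside the ZT10 range were males. Of the annotated exonic bases of Jun, 232 (7.28%) overlap Junos on the other strand, which was not in the table, and the strand setting of the counting is not given in the sources used here.

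Junb, with a single exon in its longest coding transcript (ENSMUSG00000052837, chromosome 8, 84974484 to 84978718), encodes a Jun protein that activates less strongly than Jun and can restrain it. Its log2 values were 9.11, 9.60 and 10.15 at ZT2, 9.03, 9.56 and 9.85 at ZT6, 9.34, 9.48 and 10.42 at ZT10, 10.17, 10.46 and 10.68 at ZT14, 9.76, 10.36 and 10.76 at ZT18, and 9.47, 9.86 and 10.25 at ZT22. All 10 ZT14 libraries were above all 10 ZT6 libraries, with no overlap. These were the times of its highest and lowest mean, and how many of all genes separate in this way was not counted. At ZT14 the males had 10.17, 10.19, 10.50, 10.37 and 10.45, and the females 10.24, 10.47, 10.67, 10.49 and 10.68. At ZT10 the males had 9.34, 9.43, 10.17, 9.76 and 9.44, and the 4 females 9.46, 10.42, 9.63 and 9.48. A ZT10 male at 10.17 and a ZT10 female at 10.42 reached the ZT14 range, and the other 7 lay below it. On the other strand 173 exonic bases (7.52%) overlap Prdx2, whose 24 h amplitude was 0.061 ± 0.025 (limma, adjusted p = 0.471).

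**Figure D1:**
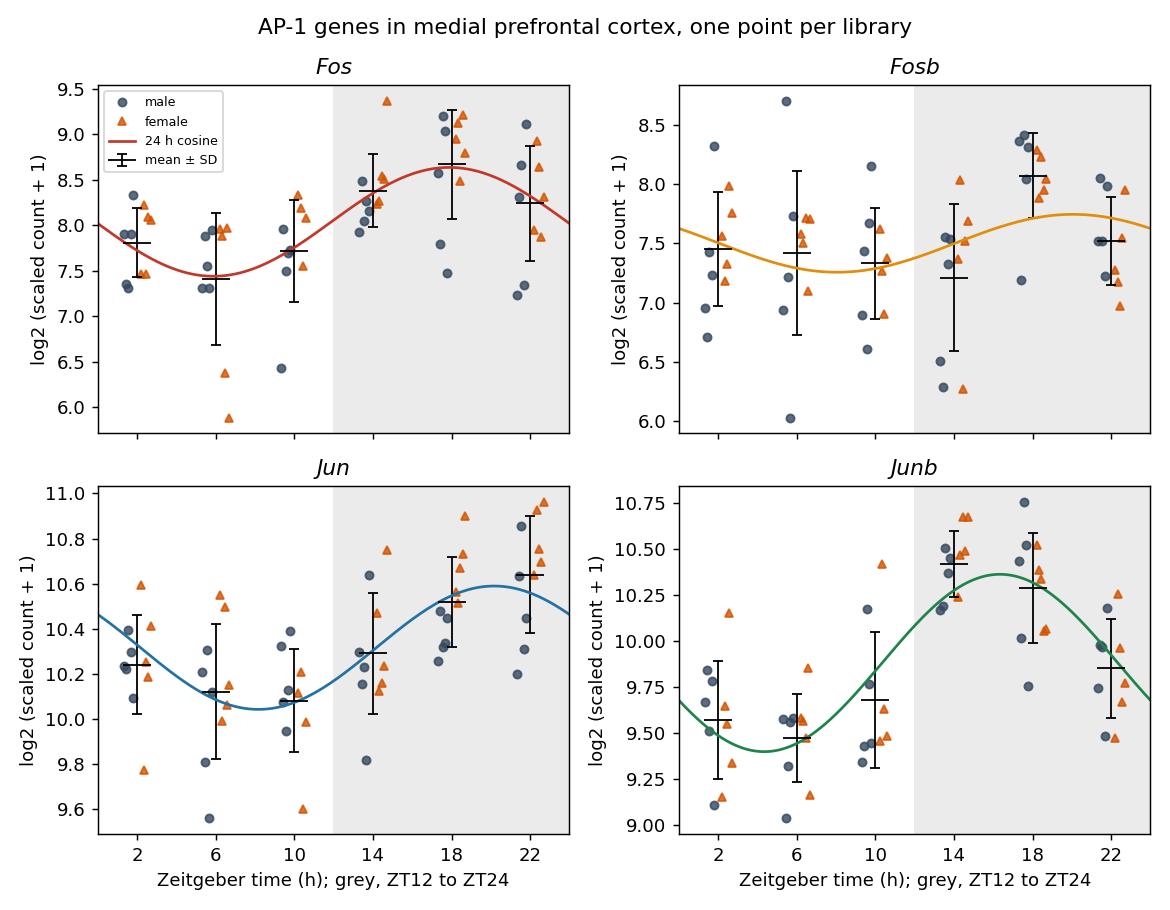
Log2 of the scaled read count plus 1 against zeitgeber time in hours for the 4 genes, with 1 point per library (circles, males; triangles, females), the mean and SD of each time (n = 9 or 10) and the fitted 24 h cosine. Junb at ZT14 lies wholly above Junb at ZT6, the times of its highest and lowest mean. Fosb stands high at ZT18 and its cosine misses the level of that time.

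A 24 h wave (cosine plus sine) was fitted to each of the 4273 genes with limma, allowing for sex, and genes with a Benjamini-Hochberg adjusted p under 0.05 were called. It called 3 of the 4 AP-1 genes, against 1.90% of all genes tested (81 genes). Of those 81 genes, 60 peaked between ZT12 and ZT24. Junb had an amplitude of 0.48 ± 0.05 from mean to peak on the log2 scale (SE, n = 59), a peak at ZT16.34 ± 0.43 and an adjusted p of 1.26e-08 (limma). Its fitted trough-to-peak ratio was 1.95, and it ranked 2 by p among all genes. Fos had an amplitude of 0.60 ± 0.10, a trough-to-peak ratio of 2.29, a peak at ZT17.88 ± 0.63 and an adjusted p of 0.000125 (limma). Jun had 0.27 ± 0.04, a ratio of 1.46, a peak at ZT20.17 ± 0.61 and the same adjusted p as Fos. Fosb had 0.24 ± 0.10, nearly the amplitude of Jun with a wider error, and an adjusted p of 0.458 (limma, unadjusted p = 0.0565). The median amplitude over all genes was 0.076.

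These calls depended on how libraries were scaled. With libraries scaled by their totals in the table, most of which are the 6 noncoding genes, the amplitudes were 0.61 for Fos, 0.30 for Jun and 0.48 for Junb, and the adjusted p was 0.0709 for Fos, 1 for Jun and 0.0113 for Junb (limma), with 3 genes called in all. Without the libraries numbered 49 to 60 the adjusted p was 0.000219 for Fos, 0.000707 for Jun and 1.15e-06 for Junb (limma).

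The dark times were compared with the light times as means of 3 times each. Junb was higher at the dark times by 0.61 ± 0.07 on the log2 scale (SE, adjusted p = 4.85e-08), Fos by 0.78 ± 0.14 (adjusted p = 0.00038) and Jun by 0.33 ± 0.06 (adjusted p = 0.000811), all by limma. Fosb differed by 0.20 ± 0.13 (adjusted p = 0.747, limma). So 3 of 4 rose, against 0.538% of all genes called higher (23 genes). Scaled by library totals the adjusted p was 0.0614 for Fos and 1 for Jun (limma), with differences of 0.79 and 0.34.

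A test with time as a factor, which assumes no cosine, called Fos, Jun and Junb, against 1.05% of all genes (45 genes). The range of the fitted time means was 1.26 for Fos, between ZT18 and ZT6 (adjusted p = 0.0045), 0.55 for Jun, between ZT22 and ZT10 (adjusted p = 0.00199), and 0.95 for Junb, between ZT14 and ZT6 (adjusted p = 9.05e-08), all by limma. Fosb had a range of 0.86 between ZT18 and ZT14, larger than that of Jun, with an unadjusted p of 0.00811 and an adjusted p of 0.237 (limma). Scaled by library totals, none of the 4 passed, with an adjusted p of 0.111 for Junb, 0.711 for Fos and 1 for Jun (limma), and the highest time was ZT18 for each of the 4 genes. The median of all genes at ZT18 over ZT14 was 0.20 under that scaling, against -0.01 on the deposited scale, and Junb, at 0.07 over that step, was below it.

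**Figure D2:**
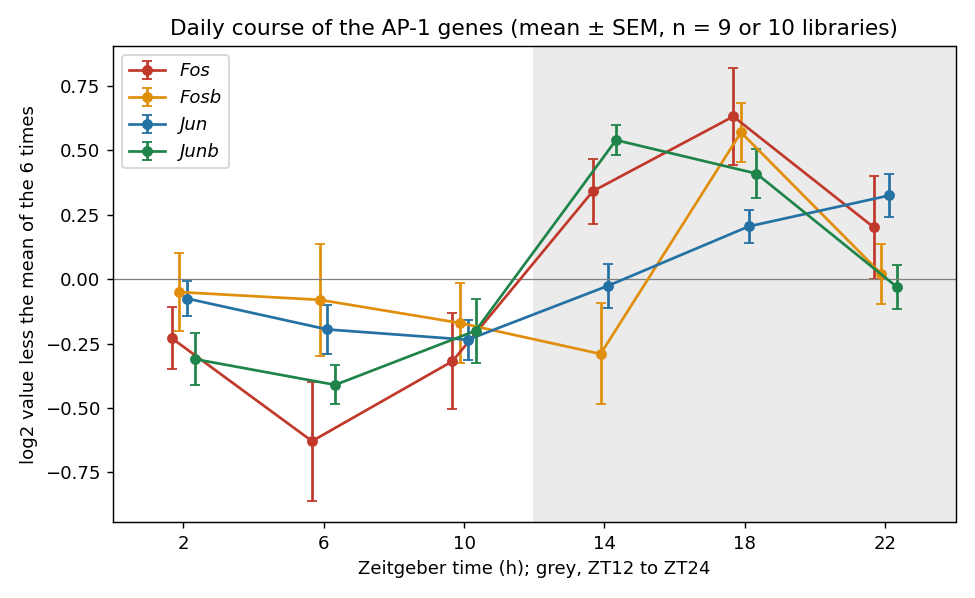
Mean log2 value of each gene at each zeitgeber time, less the mean of its 6 times, with the standard error over 9 or 10 libraries. On the deposited scale Junb is highest at ZT14, Fos and Fosb at ZT18 and Jun at ZT22 (all at ZT18 with libraries scaled by totals). The Fosb mean is lowest at ZT14, where Junb is highest, but the Fosb median at ZT14 is not the lowest.

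The steps between successive times showed where in the day each gene moved. Of the 24 steps of the 4 genes, the single step that passed was Junb at ZT14 over ZT10. It was 0.74 ± 0.13 on the log2 scale (SE), with an adjusted p of 0.000653 (limma), and ranked 3 by p among all genes, of which 0.0702% (3 genes) were called. Scaled by library totals it was 0.73 with an adjusted p of 1 (limma). Fos at the same step differed by 0.65 ± 0.25 (adjusted p = 0.728) and Jun by 0.19 ± 0.11 (adjusted p = 0.918), both by limma, and Fosb by -0.12 ± 0.23.

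At ZT18 over ZT14 Fosb had the largest step of the 4, at 0.86 ± 0.23, with an unadjusted p of 0.000342, rank 6 among all genes and an adjusted p of 0.216 (limma), where 0.0702% of genes passed. Over that step Junb differed by -0.14 ± 0.13. For ZT22 over ZT18, Fosb was at -0.55 ± 0.23 and Junb at -0.44 ± 0.13, with adjusted p of 0.904 and 0.797 (limma), and 0% of genes were called (0 genes, 193 at an unadjusted p under 0.05 by limma). For ZT2 over ZT22, Jun was at -0.40 ± 0.11, rank 2 by p, with an adjusted p of 0.726 (limma), and 0% were called (0 genes, 161 at an unadjusted p under 0.05 by limma). The other steps of Fos were -0.40 ± 0.24 at ZT6 over ZT2, 0.32 ± 0.25 at ZT10 over ZT6, -0.43 ± 0.24 at ZT22 over ZT18 and -0.43 ± 0.24 at ZT2 over ZT22, with adjusted p of 0.622, 0.763, 0.904 and 0.999 (limma). The steps within the light times were from -0.12 to 0.22 for Fosb, Jun and Junb, and none of the 4 genes passed at ZT6 over ZT2 or ZT10 over ZT6, where 0.140% and 0.0234% of all genes were called. A 12 h component added to the cosine was 0.25 ± 0.09 for Fosb (unadjusted p = 0.0323) and 0.13 ± 0.05 for Junb (unadjusted p = 0.0452), each with an adjusted p of 0.625 (limma), and 0% of genes were called (0 genes, 291 at an unadjusted p under 0.05 by limma).

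A further fit had the first 2 principal components of the deviations from the group means as covariates. Such components leave every difference between groups as it was and change only its error, and many more genes passed with them, 359 in the 24 h test. They were taken from the spread within groups of these same values and remove part of it from the error. The p-values of this fit are therefore too small, and passing in it is no support for a difference. Fosb then passed for differences among the 6 times (adjusted p = 0.00662, limma), where 29.7% of all genes were called, and for the 12 h component (adjusted p = 0.0479, limma), where 22.5% were. Its step at ZT18 over ZT14 passed as well (adjusted p = 0.00329, limma), with 9.38% of genes called. The Junb step at ZT22 over ZT18 had an adjusted p of 0.0301, with 2.06% called, and the Jun step at ZT2 over ZT22 an adjusted p of 0.0235, with 0.0936% called (limma).

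**Figure D3:**
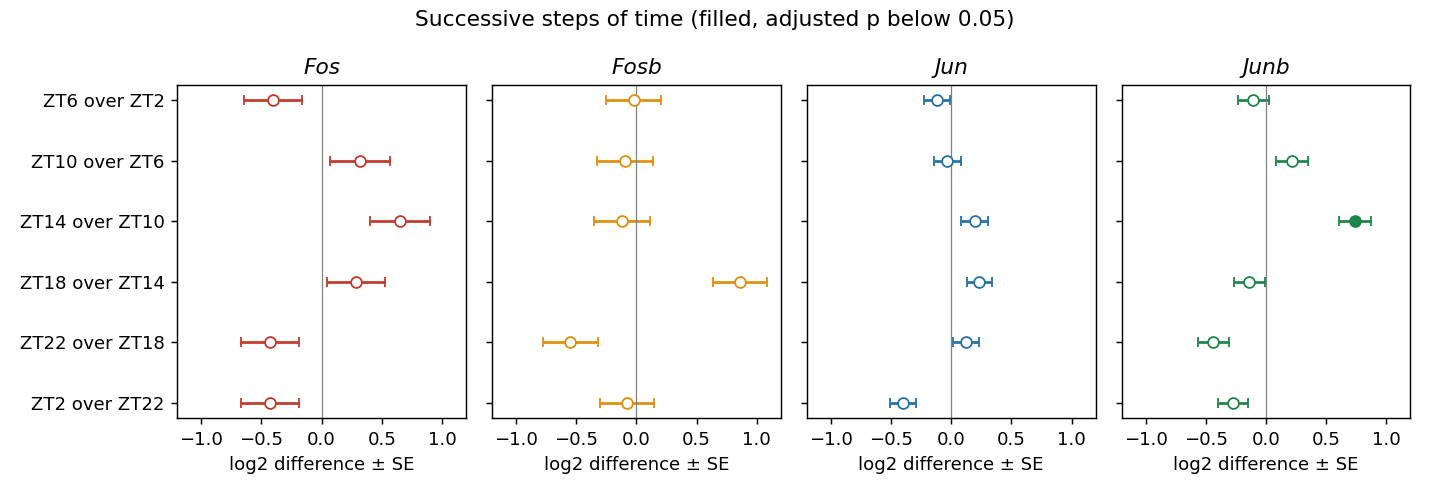
Log2 difference with its standard error for each time over the time before it, from limma, in the 4 genes (filled point, adjusted p below 0.05). The only filled point is Junb at ZT14 over ZT10, at 0.74, and the largest step of Fosb is 0.86 at ZT18 over ZT14.

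Whether the members differ from each other in daily course was tested on the log2 ratio of each of the 6 pairs within a library, which the scaling of the library cannot move. The times were permuted within sex 100000 times and p-values were adjusted over the 6 pairs. The ratio of Jun to Junb followed the clearest rhythm, peaking at ZT2.04 with an amplitude of 0.41 ± 0.07, and its cosine took 35.8% of the variance (adjusted permutation p = 0.00018). Its mean log2 ratio was 0.67 at ZT2, 0.65 at ZT6, 0.40 at ZT10, -0.14 at ZT14, 0.24 at ZT18 and 0.80 at ZT22, so it was lowest at ZT14 and highest at ZT22. The ratio of Fos to Jun peaked at ZT16.37 with an amplitude of 0.40 ± 0.11 (adjusted permutation p = 0.00579). The ratio of Fos to Fosb had 0.41 ± 0.13 with a peak at ZT16.65, and that of Fosb to Junb 0.40 ± 0.12 with a peak at ZT2.33, both with an adjusted permutation p of 0.0116. The mean log2 ratio of Fosb to Junb was -3.21 ± 0.59 (SD, n = 10) at ZT14 and between -2.36 and -2.05 at the other 5 times. The ratio of Fos to Junb had 0.24 ± 0.09 with a peak at ZT21.27 and passed narrowly (adjusted permutation p = 0.0441). That call was lost in 24 of 59 fits that left out 1 library and without the libraries numbered 49 to 60 (adjusted permutation p = 0.117). The ratio of Fosb to Jun had an amplitude of 0.032 ± 0.105, and no 24 h rhythm of it was detectable (permutation p = 0.957). Only a 24 h cosine was tested. The mean log2 ratio of Fosb to Jun was -3.08 ± 0.61 at ZT14, -2.45 ± 0.44 at ZT18 and -3.12 ± 0.45 at ZT22 (SD, n = 10 each).

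Libraries of the same group were also compared for the members they had high together. Deviations from the group mean correlated between Fos and Junb, with r = 0.47 (adjusted permutation p = 0.00156) and rho = 0.42 (adjusted permutation p = 0.00636) over 59 libraries and 6 pairs. The r was 0.44 in the 48 libraries numbered 1 to 48, 0.63 in the 11 numbered 49 to 60 and 0.42 without the 2 libraries with the most extreme Fos deviations. No other pair passed. Fos and Fosb had r = 0.22 and rho = 0.22, and Fosb and Jun had r = 0.21 and rho = 0.18, each r with an adjusted permutation p of 0.217. Fosb and Junb had r = -0.16 and rho = -0.06 (adjusted permutation p of r = 0.359). Fos and Jun had r = 0.05, and Jun and Junb r = -0.04, with rho of 0.00 and -0.07, each r with an adjusted permutation p of 0.748. These deviations moved with the structure shared by libraries to unequal degrees. The correlation with the first principal component was 0.03 for Fos, 0.49 for Fosb, 0.53 for Jun and -0.38 for Junb over 59 libraries, and with the second 0.38 for Fos, -0.03 for Fosb, -0.20 for Jun and 0.16 for Junb. With the share of reads in the 6 noncoding genes it was -0.25 for Fos, -0.30 for Fosb, -0.24 for Jun and 0.10 for Junb. The part of these in the correlation of Fos with Junb was not tested.

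The serial numbers fell into 5 runs of 12, and the 24 h fit was repeated in each as a check on runs. Junb peaked between ZT15.86 and ZT17.02 in all 5 runs, with amplitudes from 0.30 to 0.64. Fos peaked between ZT16.63 and ZT18.83 in all 5, with amplitudes from 0.38 to 0.97. Jun peaked between ZT17.31 and ZT22.10, with an amplitude of 0.08 in the first run and from 0.30 to 0.38 in the others. Fosb peaked between ZT18.13 and ZT21.80 in 4 runs, and in the second run it had a peak at ZT5.47 with an amplitude of 0.11. Each run holds 1 library per group, or 11 libraries in the last run, so the runs carry few calls of their own, from 0 to 2 genes of the whole table.

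**Figure D4:**
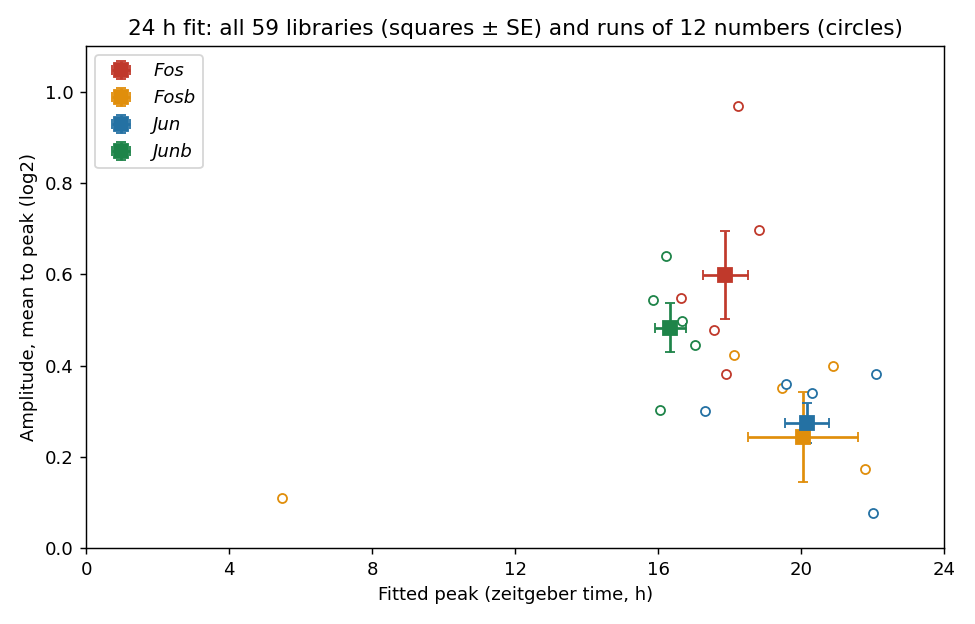
Fitted amplitude on the log2 scale against fitted peak in zeitgeber hours for the 4 genes, from all 59 libraries (squares, with standard errors) and from each run of 12 serial numbers (open circles). The Junb and Fos circles keep to ZT15.86 to ZT18.83, and a single Fosb circle lies at ZT5.47.

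Males and females were compared with time as a factor. Fos was -0.23 ± 0.14 in males relative to females on the log2 scale (SE), Fosb -0.08 ± 0.13, Jun -0.14 ± 0.06 and Junb -0.05 ± 0.07, each with an adjusted p of 0.999 (limma), where 0.0234% of all genes were called. For Jun the unadjusted p was 0.0321 (limma). The largest gaps of Jun were at ZT18, with 10.37 ± 0.09 in males and 10.68 ± 0.15 in females, and at ZT22, with 10.49 ± 0.26 in males and 10.80 ± 0.14 in females (SD, n = 5 each). The ZT18 males, highest at 10.48, were all below the ZT18 females, lowest at 10.51. These times were picked for their gaps, and how many of all genes separate by sex at a given time was not counted. At ZT2 the sexes stood at 10.25 ± 0.11 in males and 10.24 ± 0.31 in females, and at ZT10 males were the higher, at 10.17 ± 0.18 (SD, n = 5) against 9.98 ± 0.27 in females (SD, n = 4).

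Fitted in males alone, Junb was the one AP-1 gene called, with an amplitude of 0.48 ± 0.07, a peak at ZT16.81 and an adjusted p of 0.00127 (limma), where 0.164% of genes were called. Male Fos had 0.46 ± 0.13 (adjusted p = 0.345) and male Jun 0.20 ± 0.06 (adjusted p = 0.347), both by limma. In females alone Junb had 0.49 ± 0.08 with a peak at ZT15.85 (adjusted p = 0.00196), Fos 0.75 ± 0.13 with a peak at ZT17.43 (adjusted p = 0.00791) and Jun 0.36 ± 0.07 with a peak at ZT20.30 (adjusted p = 0.0159), all by limma, where 0.328% of genes were called. Fosb had 0.30 ± 0.16 in males and 0.18 ± 0.11 in females and passed in neither. The direct test of the difference of rhythm did not pass for any member. The difference between male and female cosines had a size of 0.34 ± 0.19 for Fos and 0.16 ± 0.09 for Jun, both with an adjusted p of 0.741 (limma), and 0% of genes were called (0 genes, 180 at an unadjusted p under 0.05 by limma), so a difference between the sexes was not shown. Without the libraries numbered 49 to 60 that size was 0.081 for Fos and 0.105 for Jun, and with libraries scaled by totals 0.505 for Fos and 0.440 for Jun, none of them called by limma. The median size over all genes was 0.172, and 0.31 with libraries scaled by totals. The female calls of Fos, Jun and Junb were lost without the libraries numbered 49 to 60, with adjusted p of 0.0604, 0.135 and 0.0576 and amplitudes of 0.62, 0.33 and 0.45 (limma). The female call of Jun was also lost without ZT10 female replicate 3 (adjusted p = 0.0545, limma). With libraries of a group that share an animal number averaged, the male call of Junb (amplitude 0.49, adjusted p = 0.0689) and the female call of Jun (amplitude 0.35, adjusted p = 0.147) were lost (limma).

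Of 14 other AP-1 genes listed, which include the remaining Fos and Jun family members and their ATF and small Maf partners, 2 were in the table. Batf2 had too few reads to be tested. The one tested, Mafk, a small Maf protein that dimerises with Fos, reached an amplitude of 0.11 ± 0.07 (limma, adjusted p = 0.857). The comparison within the family therefore rests on Fos, Fosb, Jun and Junb.

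Other immediate early genes were followed as a list of 34, of which 12 were in the table and tested and 7 passed the 24 h test, against 1.90% of all genes. All 7 peaked between ZT12 and ZT24, and the median amplitude of the 12 was 0.42, against 0.076 over all genes. Arc, a protein of activated synapses, had the largest amplitude of the list at 0.90 ± 0.07 with a peak at ZT18.13, close to that of Fos. Ier5l, at 0.42 ± 0.06 with a peak at ZT16.53, and Arl4d, at 0.51 ± 0.09 with a peak at ZT16.91, had the peaks nearest to that of Junb among the 7. Per1, a clock gene that is also induced by activity, and Gadd45b, a stress and activity response gene, came earlier, with peaks at ZT14.87 and ZT14.92 and amplitudes of 0.45 ± 0.05 and 0.50 ± 0.11. Egr1, a zinc finger factor induced together with Fos, had 0.41 ± 0.09 with a peak at ZT19.53, close to Jun, and Homer1, a scaffold of glutamate receptors, had 0.19 ± 0.05 with a peak at ZT22.74. The 5 that did not pass were Egr2 with an amplitude of 0.58 ± 0.15, Nr4a2 with 0.38 ± 0.15, Ccn1 with 0.40 ± 0.20, Rasd1 with 0.22 ± 0.19 and Ier3 with 0.11 ± 0.14, with adjusted p from 0.0709 to 0.996 (limma).

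**Figure D5:**
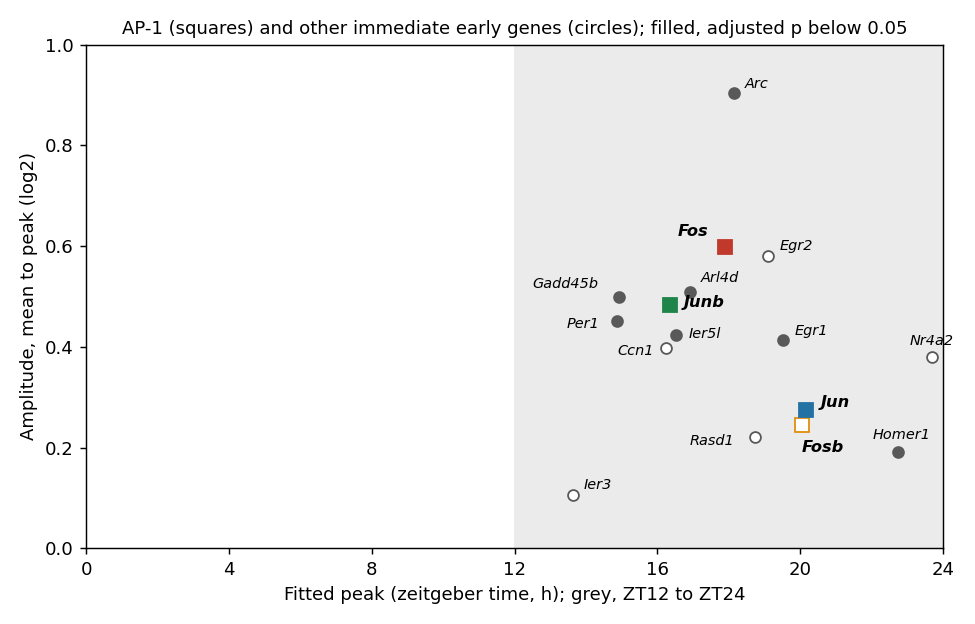
Fitted amplitude on the log2 scale against fitted peak in zeitgeber hours for the 4 AP-1 genes (squares) and the 12 other immediate early genes tested (circles), filled where the adjusted p of the 24 h test was below 0.05 (limma). Every fitted peak lies between ZT12 and ZT24, with Junb at ZT16.34, Fos at ZT17.88 and Jun at ZT20.17.

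Genes of the pathway around AP-1 were read against the same 1.90% of all genes called in the 24 h test. Of 27 kinases, phosphatases and scaffolds that act upstream, 11 were tested and 0 passed (limma, 1 at an unadjusted p under 0.05), with a median amplitude of 0.061. Dusp5, a phosphatase that inactivates ERK in the nucleus and is itself induced by ERK, had the largest at 0.39 ± 0.10 with a peak at ZT15.99 (adjusted p = 0.0656, limma). The kinases Mapk10 and Map2k4, which lead to phosphorylation of Jun protein, had amplitudes of 0.021 ± 0.062 and 0.047 ± 0.026. Of 19 transcription factors and coactivators that act on AP-1 promoters, 8 were tested and 1 passed. That was Srf, the serum response factor, at 0.20 ± 0.04 with a peak at ZT22.20 (adjusted p = 0.00839, limma), and Creb1, which binds the CRE, had 0.090 ± 0.032 (adjusted p = 0.318, limma). Of 18 proposed targets of AP-1 in neurons, 6 were tested and 1 passed, Homer1, which is also in the list of immediate early genes. Nptx2, a secreted pentraxin of synapses, had 0.27 ± 0.08 with a peak at ZT5.14 in the light times (adjusted p = 0.168, limma), and the neuropeptide genes Penk and Npy had 0.023 ± 0.100 and 0.17 ± 0.09. The median amplitudes of the last 2 lists were 0.085 and 0.106, near that of all genes.

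The tested genes most like each member were ranked by Pearson r over the 59 libraries after the mean of each run of 12 was removed. Genes with Gm, Rik, accession, Ensembl or pseudogene names were left out of the ranking. These r describe shared time of day as well as shared library, and carry no test. Fos was most like Arc (r = 0.77), Junb (0.67), Egr2 (0.64), Egr1 (0.61) and Ier5l (0.59). Junb was most like Arc (r = 0.82), Ier5l (0.78), Zfp189 (0.69), Mettl7a1 (0.68) and Nab2 (0.68), of which Nab2 encodes a corepressor of EGR proteins. Jun was most like genes outside the immediate early list, with Hrh3, a histamine receptor, at r = 0.68, Unc5a at 0.64, Hlf, a clock-controlled transcription factor, at 0.64, Irf2bpl at 0.61 and Srek1 at 0.58. Fosb was most like Egr1 (r = 0.60), Hspa5 (0.57), a chaperone of the endoplasmic reticulum, Por (0.55), Mn1 (0.53) and Rilpl1 (0.53). The 99th percentile of r over all tested genes was 0.41 for Fos, 0.45 for Fosb, 0.48 for Jun and 0.43 for Junb. Fos and Junb thus shared Arc and Ier5l among their 5, Fos and Fosb shared Egr1, and Jun shared none of its 5 with the other 3.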

How the data were processed

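Reads were obtained by the authors from total RNA of homogenised medial prefrontal cortex, in libraries made with a stranded total RNA kit (Takara SMART) per the labels' protocols. The submitters' processing notes name FastQC, HTSeq, DESeq2 and GRCm38, without versions. The aligner, the annotation release and the strand setting are not given in the sources used here. The deposited table is called raw counts, but its values are on the log2 scale, as log2 of 1 plus a scaled number of reads. Dividing 2 to the power of the value, less 1, by a step for each library (1.518 to 6.235) gave whole reads for every gene within 0.0195, and these reads served for depth, filtering and alternatives.

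Genes with at least 10 reads in at least 4 libraries were tested with limma 3.58.1 (R 4.3.3) on the log2 values, using its trend and robust options, and the Benjamini-Hochberg adjustment ran over 4273 genes. The sex, the time and the serial number came from the titles, and replicates were numbered by runs of 12 serial numbers. Number 54 is absent. Ratios and correlations of members were tested by 100000 permutations, or 20000 in each fit that left out 1 library. Symbols (4465 of 4484 genes) and positions came from GENCODE M21. The 24 h fit was checked on simulated data with planted rhythms. In the same data, calls of the sex and 12 h tests were counted with no such effect planted. The simulated noise was independent between genes, unlike that of these data. Successive steps of time and the permutation tests were not checked in this way. Genes were named by rule: the 4 members, listed genes that passed the 24 h test, and the 5 properly named genes most like each member. Listed genes given with values although they did not pass were chosen after their values were seen. The members, the gene lists and the rules were chosen with earlier results of these data known. Alternatives were limma voom on recovered reads, no intensity trend, no filter, a replicate block, library totals, 2 principal components as covariates, averages over repeated animal numbers, and fits without libraries. The summed level of the glutamatergic markers is not reported here.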

Additional observations from a re-analysis of the deposited data

Results flagged for a closer look

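Of the 48 sets of 4 or 5 libraries (each member in each group of time and sex), 1 held a library far from the others. Fos in ZT14 female replicate 5 had a log2 value of 9.37 on 435 reads, while the other 4 libraries of its group lay between 8.23 and 8.54. The gap to the nearest of these was 0.727 of the range of the group. Chance marks about 1 in 20 such groups. That library had the lowest share of reads in the 6 noncoding genes, 61.4%, and the part of this in its Fos value was not tested. Without it the amplitude of the Fos rhythm was 0.58, against 0.60 with all 59 libraries, and its adjusted p was 0.000184 (limma).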

How the results depend on the processing

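The calls of Fos, Jun and Junb in the 24 h test held in every fit that left out 1 library and under limma voom, no filter, no intensity trend and the replicate block, in which Fos had an amplitude of 0.597, Jun 0.270 and Junb 0.483. Under the block the correlation of Jun with Junb turned to 0.076, uncalled in both, and no call changed. Same-numbered libraries of other groups correlated little (mean r 0.107, from -0.494 to 0.601 over 319 pairs, against -0.026 over 1276 pairs of unequal number). By mean r, 30 of 59 libraries correlated best with their own run, a hint from the data, not the design. That count is tilted toward the own run. Only the other runs hold libraries of the same group, and removing the group mean makes those r negative on average. The labels do not say what the serial numbers mark.

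Scaling by library totals left 3 genes with a 24 h rhythm. The values of results no longer called were 0.605 for the Fos rhythm and 0.299 for the Jun rhythm, 1.266, 0.626 and 0.873 for the differences among times of Fos, Jun and Junb, and 0.789 and 0.343 for dark over light in Fos and Jun. It moved the median of all genes by 0.141 at ZT6 over ZT2, -0.171 at ZT10 over ZT6, 0.196 at ZT18 over ZT14 and -0.114 at ZT22 over ZT18. Steps that changed sign there were ZT6 over ZT2 in Fosb (0.124), Jun (0.027) and Junb (0.044), each below that median, ZT18 over ZT14 in Junb (0.069), also below it, and ZT22 over ZT18 in Jun (-0.004), above it.

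Leaving out all libraries numbered 49 to 60 left 50 genes called, the female amplitudes of 0.618 (Fos), 0.329 (Jun) and 0.448 (Junb) and the Fos to Junb ratio (0.200) were not called, and 2 uncalled values changed sign, the Fosb step at ZT6 (0.050) and the correlation of Fos with Jun (-0.030). In those 11 libraries alone, an alternative chosen after seeing the data, 0 genes were called by limma (292 at an unadjusted p under 0.05), with amplitudes of 0.698 (Fos), 0.301 (Jun) and 0.544 (Junb). With 2 principal components, which change the errors and not the differences, 359 genes were called, and Fosb passed for the 12 h component (0.254) and the differences among times (0.861). The p-values of that fit are too small, because its components were taken from these same values. Fewer libraries entered the fits without, or only with, the libraries numbered 49 to 60, while all 59 entered the fit with principal components. The cause of these changes was not tested.

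With libraries of a group that share an animal number averaged to 1, chosen after seeing the data, 37 values remained. The calls of Fos, Jun and Junb in the 24 h, dark over light and time tests held, 65 genes followed a 24 h rhythm, male Junb (0.492) and female Jun (0.348) were not called, and the uncalled sex difference of Junb changed sign (0.022). Within groups, pairs with the same animal number had a mean r of -0.236 (22 pairs), and pairs with unequal numbers -0.25 (94 pairs). These r are between deviations from the group mean, which makes their mean negative by construction. Whether libraries share mice was not tested.

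Leaving out 1 library gave 0.321 to 0.387 for the female Jun rhythm and 0.212 to 0.277 for the Fos to Junb ratio, both lost in some fits. Uncalled values that changed sign ran from -0.173 to 0.129 (Fosb, ZT6 over ZT2), -0.247 to 0.061 (Fosb, ZT10 over ZT6), -0.088 to 0.043 (Jun, ZT10 over ZT6), -0.179 to 0.003 (Fosb, ZT2 over ZT22), -0.016 to 0.097 (Fos with Jun) and -0.117 to 0.014 (Jun with Junb). The uncalled amplitude of the Fosb to Jun ratio ran from 0.008 to 0.060. Its fitted peak moved by hours in the fit without ZT6 male replicate 2. Counts of 16 to 435 reads limit the precision of Fos.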
